A study of Mus musculus with 16 samples.

Results

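Glutathione S-transferases (Gst), UDP-glucuronosyltransferases (Ugt) and cytosolic sulfotransferases (Sult) are the conjugating enzymes of the liver. Their genes were followed here in liver RNA of male C57BL/6J mice whose ketohexokinase (KHK), the first enzyme of fructose breakdown, had been knocked down or inhibited. The genes were taken by symbol: Gst followed by the class letter a, k, m, o, p, t or z and a number, Ugt families 1 to 3, and Sult with its family, subfamily and number, with pseudogenes left out. This gave 64 of the 50559 symbols in the count table, of which 22 were Gst, 21 Ugt and 21 Sult genes. All mice started their diet at 6 weeks of age and stayed on it for 10 weeks, and the treatments filled the last 4 weeks. The LFD group had a low-fat diet (the labels call it chow), and the HFD, HFD + siRNA and HFD + Inhib groups had a high-fat diet. Mice of the LFD, HFD and HFD + Inhib groups were injected every 2 weeks with a control siRNA against luciferase at 10 mg/kg, whereas HFD + siRNA mice received 20 mg/kg of an siRNA against all Khk transcripts. That siRNA carries GalNAc, a sugar that hepatocytes take up, so the knockdown (KD) is aimed at hepatocytes only. All mice were also gavaged 2 times a day, with methylcellulose in the LFD, HFD and HFD + siRNA groups and with the KHK inhibitor PF-06835919 at 15 mg/kg in methylcellulose in the HFD + Inhib group, which reaches the whole body. Each group had 4 libraries. According to the methods of the study, mice were injected with saline or insulin shortly before the tissue was taken, and the labels do not say which library had which.

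The 3 classes of enzymes make reactive or fat-soluble molecules easier to excrete. Glutathione transferases join glutathione to electrophiles, glucuronosyltransferases of the endoplasmic reticulum join glucuronic acid to bilirubin, bile acids, steroids and drugs, and sulfotransferases join sulfate from the donor PAPS to phenols, steroids and bile acids. In mouse liver, several of these genes are known targets of the receptors CAR, PXR, AhR and PPAR alpha or of the transcription factor NRF2, and several differ in level between males and females.

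The total of expected counts per library ran from 24317111 to 35820234 (median 29570114). Levels are given as CPM, the counts scaled to equal library totals with TMM factors, and differences as log2 fold changes ± SE from 1 edgeR fit of all 16 libraries, with p-values adjusted over 18335 genes and a threshold of 0.05. Khk, the target, was at 214, 233, 349 and 269 CPM in the LFD libraries and at 251, 322.5, 233 and 251 in the HFD libraries. It was at 11.8, 9.14, 18.1 and 11.5 CPM in HFD + siRNA and at 112, 152, 94.6 and 120.5 in HFD + Inhib. Khk was thus lower than in HFD in every library of both treated groups, with a log2 difference of -4.38 ± 0.23 (edgeR adjusted p = 1.9e-08) in HFD + siRNA and of -1.14 ± 0.20 (edgeR adjusted p = 7.5e-04) in HFD + Inhib. In all libraries the tissue was dominated by hepatocyte transcripts, with albumin (Alb) between 27701.5 and 67426 CPM, and the kidney genes Kap, Slc12a1 and Aqp2 were at 0.

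Of the 64 genes, 46 passed the filter on low counts and were tested: 20 Gst, 18 Ugt and 8 Sult genes. Sult1c1, Sult2a4, Sult2a6, Sult3a2, Sult6b1, Sult6b2 and Ugt2a1 were at 0 in every library. Gsto2, Gstt4, Sult2a1, Sult2a2, Sult2a3, Sult2a5, Sult2b1, Sult3a1, Sult4a1, Ugt1a10 and Ugt2a2 had too few counts to be tested. Since genes pass the filter through the group in which they are high, the counts that follow are over tested genes and not over all 64. In all, 36 of the 46 tested genes passed the threshold in at least 1 of the 4 comparisons, and 10 passed it in none. No such share over all tested genes is given here, so this count is not read as a result about these genes.

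On an HFD, 4 of the 46 genes were higher and 11 were lower than on an LFD, so that 32.6% of them passed, against 18.4% of all tested genes (9.58% higher and 8.8% lower). Their median log2 fold change was -0.12, against -0.01 for all tested genes. With KHK KD, 8 genes were higher and 4 lower than in HFD (26.1%, against 11.7% of all tested genes, 5.2% higher and 6.55% lower), with a median of 0.07 against 0.02. With the inhibitor, 8 genes were higher and 9 lower than in HFD (37.0%, against 18.2% of all tested genes, 9.8% higher and 8.42% lower), with a median of -0.05 against 0.00. Between the treatments, 9 genes were higher and 17 lower in HFD + Inhib than in HFD + siRNA (56.5%, against 33.8% of all tested genes, 17.3% higher and 16.6% lower), with a median of -0.13 against -0.04. The HFD libraries serve in the first 3 of these comparisons, so their values stand side by side and are not independent of each other.

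**Figure D1:**
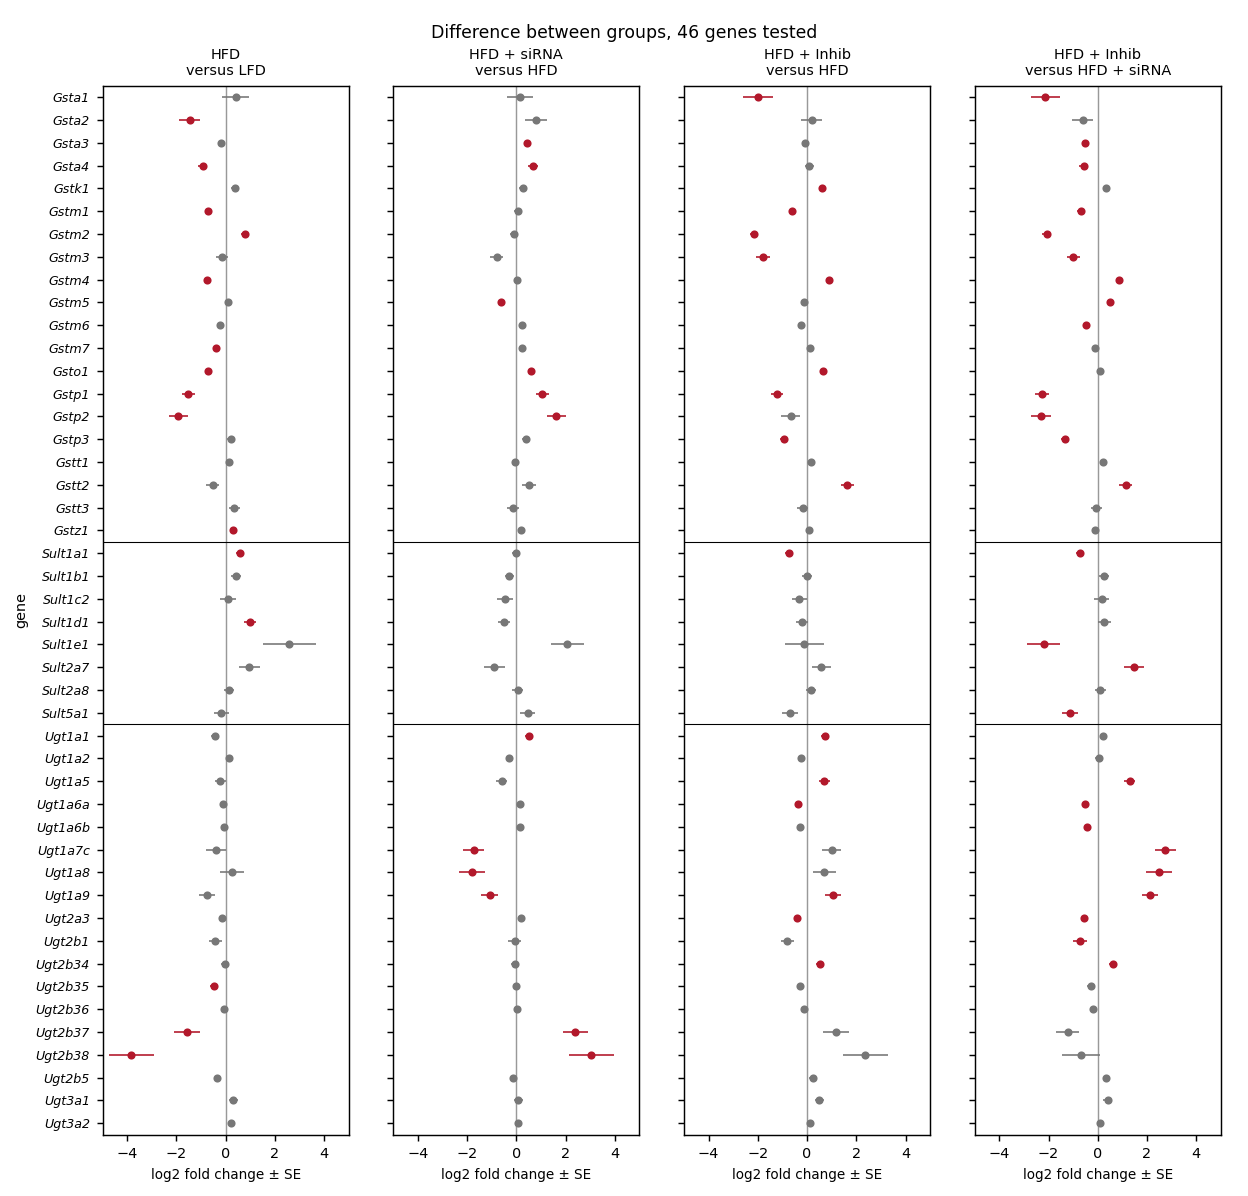
Log2 fold change (horizontal axis, with SE as the bar) of each of the 46 tested genes (vertical axis) in the 4 comparisons, red where the edgeR adjusted p was under 0.05 and grey elsewhere; lines part the Gst, Sult and Ugt genes. The widest bars belong to genes with few counts (Sult1e1, Ugt2b38), and the pi class genes Gstp1 and Gstp2 lie to the left in every panel except that of HFD + siRNA versus HFD, where they lie to the right.

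Fewer calls held in HFD + siRNA when libraries were left out. Of the 12 genes called there, 4 (Gstm5, Gsto1, Gstp2 and Ugt2b37) kept their call whichever library was left out, against 9 of 15 in HFD versus LFD, 12 of 17 in HFD + Inhib versus HFD and 22 of 26 between the treatments. The count in HFD + siRNA fell to 5 without HFD + siRNA replicate 4, to 6 without HFD replicate 2 or 4 and to 7 without HFD replicate 3, and the count on an HFD fell from 15 to 9 without HFD replicate 4, where 7 in place of 11 were lower. Of the genes that were higher, 2 in place of 4 passed on an HFD without LFD replicate 1 or 3 or HFD replicate 3 or 4. With KD, in place of 8 higher genes there were 3 without HFD + siRNA replicate 4, 4 without HFD replicate 2 or 3, and 5 without HFD replicate 1 or 4 or HFD + siRNA replicate 2. In place of 4 lower genes there was 1 without HFD replicate 4, and there were 2 without HFD replicate 2 or HFD + siRNA replicate 3 or 4. With the inhibitor, 5 in place of 8 were higher without HFD replicate 1 or HFD + Inhib replicate 4.

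Base composition set the libraries apart as well. Over 3890 well expressed genes, Spearman's rho between GC content and a library's deviation from the mean of all libraries was 0.00 to 0.62 in LFD and -0.05 to 0.56 in HFD + siRNA, but -0.49 to -0.12 in HFD and -0.54 to -0.26 in HFD + Inhib. The groups thus differed in this trend as well as in treatment, and its part in the results was not tested. The transcripts of the Ugt2b genes have a GC content of 38.8% to 40.2%, those of the Ugt1a genes 44.8% to 47.2%, those of the mu class 50.5% to 53.6% and those of the pi class 54.5% to 55.8%. With an offset for GC content and length, 11 of the 46 genes were higher and 3 lower in HFD + siRNA than in HFD, against 3.9% and 5.1% of the 16109 genes in that fit. In HFD + Inhib, 6 were higher and 13 lower than in HFD, against 9.8% and 11.2%. On an HFD, 5 were higher and 16 lower, against 8.35% and 7.02%, and between the treatments 9 were higher and 22 lower, against 13.7% and 15%. The median of the 46 genes in this fit was -0.20 on an HFD, 0.15 with KD, -0.21 with the inhibitor and -0.47 between the treatments, against 0.01, -0.01, -0.05 and -0.04 for all genes in it. Some genes passed with the offset and not without it: 8 on an HFD (Gsta3, Gstk1, Gstt1, Ugt1a1, Ugt2a3, Ugt2b34, Ugt2b36 and Ugt2b5), 5 with KD (Gstm3, Sult1e1, Sult2a8, Ugt2a3 and Ugt2b36), 4 with the inhibitor (Ugt1a6b, Ugt2b1, Ugt2b35 and Ugt2b36) and 7 between the treatments (Gstk1, Gstt1, Sult1d1, Sult2a8, Ugt2b35, Ugt2b36 and Ugt2b37).

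The summed level of the Gst genes was lower on an HFD and lower again with the inhibitor, and Gstp1 and Gstm1 carried most of both differences. The sum was 5287, 4528, 4786 and 4323 CPM in the LFD libraries and 3177, 3217, 3112 and 3342 in the HFD libraries. In HFD + siRNA the sum was 4025, 4405, 3963 and 4654 CPM, and in HFD + Inhib it was 2654, 2979.7, 2447.5 and 2759.9. The HFD libraries lay below every LFD library, the HFD + siRNA libraries above every HFD library, and the HFD + Inhib libraries below every HFD library. Without Gstp1 and Gstm1 the sum was 1890.7 to 2276 CPM in LFD, 1796.1 to 2232 in HFD, 2321 to 2597 in HFD + siRNA and 1787.7 to 2178 in HFD + Inhib, so that HFD overlapped with LFD and with HFD + Inhib. The median log2 fold change of the tested Gst genes was -0.19 on an HFD and -0.09 with the inhibitor, against -0.01 and 0.00 for all tested genes. By gene, 2 of the 20 tested Gst genes rose and 8 fell on an HFD, 5 rose and 1 fell in HFD + siRNA, and 4 rose and 6 fell in HFD + Inhib. These were 50%, 30% and 50% of the 20 genes, against 18.4%, 11.7% and 18.2% of all tested genes. In the same 3 comparisons, 16.7%, 33.3% and 33.3% of the 18 tested Ugt genes and 25.0%, 0.0% and 12.5% of the 8 tested Sult genes passed. The sums of the Ugt and Sult classes overlapped between LFD and HFD: the Ugt sum ran from 2555 to 3625 CPM in LFD and from 2708 to 2930 in HFD, and the Sult sum from 417 to 897 in LFD and from 696 to 993 in HFD.

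**Figure D2:**
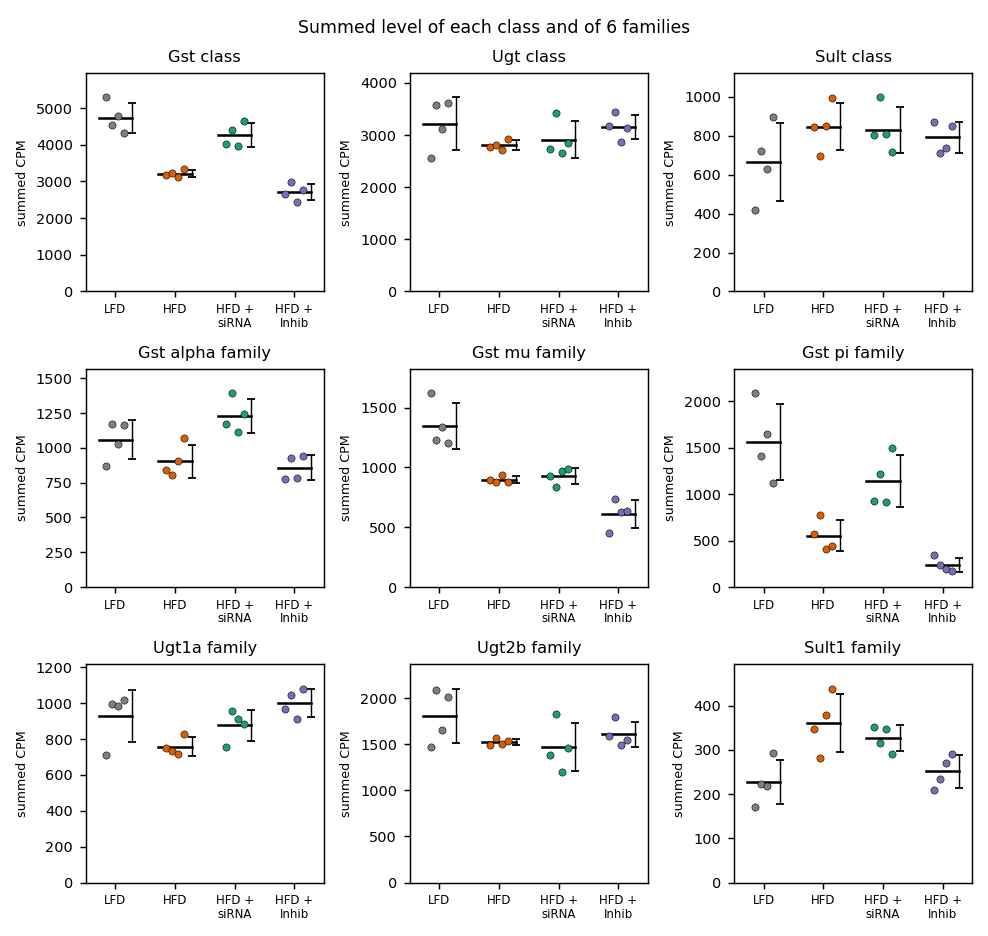
Summed CPM (vertical axis, from 0) of each class and of 6 families in the 4 groups (horizontal axis); points are the 4 libraries, lines the mean and bars the SD. The Gst class and the Gst pi family were lower in HFD than in LFD and lowest in HFD + Inhib, whereas the Ugt and Sult sums overlapped between LFD and HFD.

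The genes that made up the Gst class changed order with the treatment. Per kilobase of transcript, Gstp1 held 43.2% of the class in LFD, Gstm1 20.7% and Gsta3 15.7%. In HFD, Gstp1 (24.5%), Gsta3 (22.6%) and Gstm1 (20.7%) lay close together, and in HFD + siRNA Gstp1 again led with 36.1%. In HFD + Inhib it held 13.2%, behind Gsta3 (26.9%), Gstm1 (17.1%) and Gstz1 (14.6%).

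The pi class holds Gstp1, the main pi transferase of mouse liver, which is known to be more abundant in males, its close copy Gstp2, and Gstp3. The Gstp1 level was 2023, 1348.5, 1583 and 1079.8 CPM in the LFD libraries, 543, 754, 388 and 421 in HFD, 883, 1149.9, 877 and 1441.5 in HFD + siRNA and 327, 224, 188 and 163 in HFD + Inhib. All HFD libraries were below all LFD libraries, all HFD + siRNA libraries were above all HFD libraries, and all HFD + Inhib libraries were below all others. Gstp1 fell 2.86-fold on an HFD, with a log2 fold change of -1.52 ± 0.26 (edgeR adjusted p = 0.0013). With KD it was higher than in HFD by 1.05 ± 0.26 (edgeR adjusted p = 0.016). This call was lost without HFD replicate 3 (0.93, edgeR adjusted p = 0.059), HFD replicate 4 (0.94, edgeR adjusted p = 0.057) or HFD + siRNA replicate 4 (0.86, edgeR adjusted p = 0.064). With the inhibitor the log2 fold change was -1.22 ± 0.26 (edgeR adjusted p = 0.0033) against HFD and -2.27 ± 0.27 (edgeR adjusted p = 1.2e-05) against KD, the last being a 4.82-fold difference.

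Gstp2 went the same way at a lower level. It was at 56.2, 49.9, 51.3 and 33.8 CPM in LFD, 15.8, 15.1, 6.45 and 13 in HFD, 27.3, 57, 23.4 and 48.1 in HFD + siRNA and 13, 10.4, 2.78 and 5.67 in HFD + Inhib, so that the LFD and HFD + siRNA libraries overlapped with each other but not with HFD. The log2 fold change was -1.92 ± 0.39 (edgeR adjusted p = 0.004) on an HFD, 1.63 ± 0.39 (edgeR adjusted p = 0.014) with KD and -2.30 ± 0.40 (edgeR adjusted p = 4.4e-04) between the treatments, while the difference between HFD + Inhib and HFD, -0.67 ± 0.40 (edgeR adjusted p = 0.268), did not pass. Gstp3 departed from both: it was at 10.4, 9.24, 10.3 and 10.5 CPM in LFD and 10.6, 11.1, 12.9 and 11.8 in HFD, with a difference of 0.20 ± 0.16 (edgeR adjusted p = 0.415). It was at 6.11, 4.94, 6.8 and 6.24 CPM in HFD + Inhib, below every other library, with log2 fold changes of -0.94 ± 0.16 (edgeR adjusted p = 6.9e-04) against HFD and -1.35 ± 0.16 (edgeR adjusted p = 1.5e-05) against HFD + siRNA.

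Gstp1 and Gstp2 are hard to keep apart in counts. Their coding sequences are identical at 98.1% of positions, with 12 of 633 bases different, while Gstp1 and Gstp3 match at 72.5%. The first 90 coding bases show how few positions tell them apart, with the 6 positions at which the copies differ in capitals (GENCODE M21):
Gstp1: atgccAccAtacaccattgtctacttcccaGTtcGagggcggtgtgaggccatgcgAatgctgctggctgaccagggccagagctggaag
Gstp2: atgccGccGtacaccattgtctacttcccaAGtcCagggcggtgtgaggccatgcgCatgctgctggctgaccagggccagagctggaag
Of the 50-base words of the Gstp2 transcript, 49.1% also stand in Gstp1, so the division of reads between Gstp2 and its far more abundant copy is uncertain. With the 3 pi genes summed to 1 feature, the log2 fold change was -1.51 on an HFD (edgeR adjusted p = 0.0013), 1.05 with KD (edgeR adjusted p = 0.014) and -1.20 with the inhibitor (edgeR adjusted p = 0.0034).

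**Figure D3:**
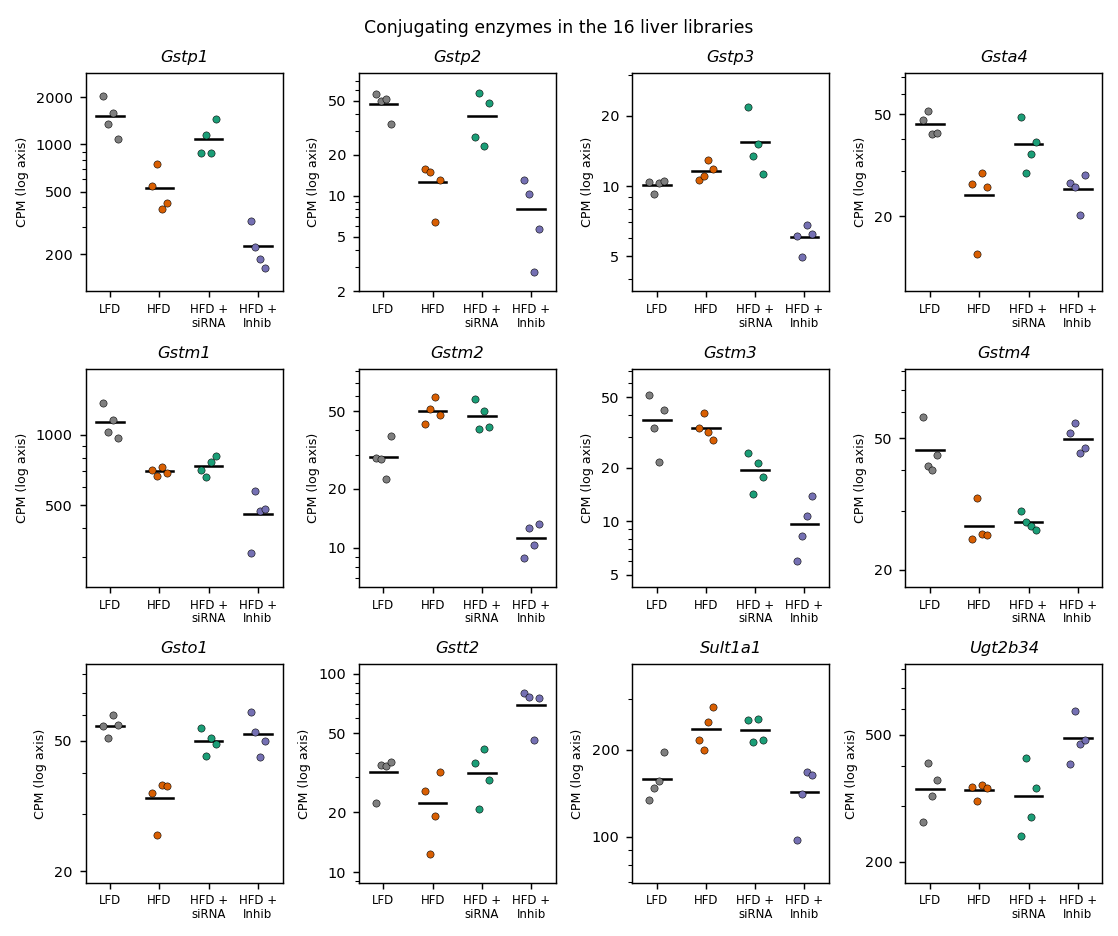
CPM on a log axis (vertical) of 12 genes in the 4 groups (horizontal), with a point for each of the 16 libraries and a line at each mean. Gstp1, Gstm2, Gstm3 and Gstp3 have their lowest libraries in HFD + Inhib, Gstt2 and Ugt2b34 their highest, and Gstm4 and Gsto1 are lower in HFD than in LFD and HFD + Inhib.

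The 7 mu class genes, which are neighbours in 1 cluster, did not move as 1 group. On an HFD, Gstm2 rose and Gstm1, Gstm4 and Gstm7 fell. With KD, Gstm5 passed the threshold, Gstm3 lay close to it, and with the inhibitor Gstm4 rose while Gstm1, Gstm2 and Gstm3 fell. Gstm1, the most abundant of them, was at 1373, 1031, 1161 and 967.5 CPM in LFD, 708.5, 667, 732 and 689 in HFD, 709, 658, 765 and 809 in HFD + siRNA and 312, 577, 472 and 479.6 in HFD + Inhib. It fell by 0.70 ± 0.15 (edgeR adjusted p = 0.0059) from LFD to HFD and fell by 0.60 ± 0.15 (edgeR adjusted p = 0.011) from HFD to HFD + Inhib, with no overlap in either step, and the difference with KD was 0.07 ± 0.15 (edgeR adjusted p = 0.801).

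Gstm2 had the largest change with the inhibitor among the called genes of all 3 classes. Its level was 28.7, 28.5, 22.4 and 37.2 CPM in LFD, 43, 51.2, 58.8 and 47.7 in HFD, 57.9, 40.3, 50.3 and 41.3 in HFD + siRNA and 8.83, 12.6, 10.3 and 13.2 in HFD + Inhib. The HFD and HFD + siRNA libraries lay above all LFD libraries, and the HFD + Inhib libraries below all LFD libraries. The log2 fold change was 0.78 ± 0.16 (edgeR adjusted p = 0.0044) on an HFD, -0.08 ± 0.16 (edgeR adjusted p = 0.794) with KD and -2.16 ± 0.17 (edgeR adjusted p = 3.6e-07) with the inhibitor, a 4.47-fold fall. Gstm3 was at 33.6, 40.9, 31.9 and 28.6 CPM in HFD and at 5.97, 8.32, 10.7 and 13.9 in HFD + Inhib, where it fell by 1.79 ± 0.27 (edgeR adjusted p = 1.9e-04). In HFD + siRNA it was at 24.2, 14.2, 21.4 and 17.8 CPM, below all HFD libraries, but the difference of -0.80 ± 0.26 (edgeR adjusted p = 0.053) missed the threshold. Gstm3 passed there in 6 alternatives, among them DESeq2 (adjusted p = 0.017), HFD and HFD + siRNA fitted alone (edgeR adjusted p = 0.01) and the offset for GC content and length, with -0.98 ± 0.28 (edgeR adjusted p = 0.038). Without overlap, HFD + Inhib was again below HFD + siRNA for Gstm3, with a log2 fold change of -0.99 ± 0.26 (edgeR adjusted p = 0.0083), a call lost with the offset and the replicate block together (-0.84, edgeR adjusted p = 0.058).

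Gstm4 went the other way. It was at 58, 41.1, 40.2 and 44.4 CPM in LFD, 24.8, 32.9, 25.6 and 25.4 in HFD, 30.2, 27.9, 27.2 and 26.4 in HFD + siRNA and 52, 55.8, 45.1 and 46.6 in HFD + Inhib. On an HFD it fell by 0.76 ± 0.12 (edgeR adjusted p = 8.8e-04), and it was higher with the inhibitor than in HFD by 0.88 ± 0.12 (edgeR adjusted p = 1.0e-04), where the libraries reached the range of LFD. KD left it at a difference of 0.04 ± 0.12 (edgeR adjusted p = 0.879) from HFD. Gstm5 was lowest in HFD + siRNA, at 2.88, 3.86, 3.91 and 3.43 CPM, against 5.1, 5.83, 6.03 and 4.46 in HFD, a difference of -0.61 ± 0.13 (edgeR adjusted p = 0.0089). Gstm6 passed between the treatments, with a log2 fold change of -0.49 ± 0.12 (edgeR adjusted p = 0.0039) in HFD + Inhib against HFD + siRNA, and Gstm7 on an HFD, with -0.38 ± 0.11 (edgeR adjusted p = 0.028). With the offset for GC content and length the Gstm7 difference was -0.26 ± 0.12 (edgeR adjusted p = 0.15), and it lost its call without LFD replicate 1 or 3 or HFD replicate 2, 3 or 4 (adjusted p up to 0.11, without LFD replicate 1).

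Of the alpha class, which is known for conjugating products of lipid peroxidation and steroids, Gsta3 was the most abundant gene. It was at 796, 774, 851 and 1025 CPM in HFD and 1063, 1352, 1057 and 1186 in HFD + siRNA, with no overlap, a rise of 0.43 ± 0.13 (edgeR adjusted p = 0.036). This call was lost when any of 7 of the 8 libraries was left out, with the adjusted p reaching 0.11 without HFD + siRNA replicate 2. Gsta3 was lower in HFD + Inhib (727, 892, 753 and 897 CPM) than in HFD + siRNA, with a log2 fold change of -0.51 ± 0.13 (edgeR adjusted p = 0.0059), a call that was kept without any 1 library. With the offset for GC content and length this Gsta3 difference was -0.84 (edgeR adjusted p = 1.1e-05). Gsta4, which acts on the lipid peroxidation product 4-hydroxynonenal, was at 47.4, 51.7, 42 and 42.3 CPM in LFD and 26.8, 14.2, 29.5 and 25.9 in HFD, a change of -0.93 ± 0.19 (edgeR adjusted p = 0.0043) with no overlap. In HFD + siRNA it was at 48.9, 29.5, 35.1 and 39.1 CPM, above HFD by 0.67 ± 0.19 (edgeR adjusted p = 0.034), and with the offset for GC content and length this was 0.50 (edgeR adjusted p = 0.13). The Gsta4 call was also lost without HFD replicate 2 or 4 or HFD + siRNA replicate 1, 3 or 4, with an adjusted p of up to 0.11 (without HFD + siRNA replicate 1).

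Gsta2 was lower on an HFD, 23.1, 42.8, 32 and 45.7 CPM in LFD against 12.8, 5.78, 19.1 and 14.8 in HFD, with a log2 fold change of -1.46 ± 0.43 (edgeR adjusted p = 0.026). The call was lost, with adjusted p from 0.053 to 0.067, without LFD replicate 4 or without HFD replicate 1, 2 or 4, and the sum of Gsta1 and Gsta2 as 1 feature gave -1.10 (edgeR adjusted p = 0.06). Gsta1 was lower with the inhibitor, 2.42, 8.12, 8.23 and 4.1 CPM in HFD against 1.45, 1.13, 1.07 and 2.1, with a log2 fold change of -1.99 ± 0.60 (edgeR adjusted p = 0.028). Leaving out 1 library ended this call in 5 of 8 cases, with an adjusted p of up to 0.079 (without HFD replicate 2). Gsta1 and Gsta2 have coding sequences that are 97.5% identical, and 90.5% of the 50-base words of the Gsta1 transcript stand in other genes. The largest part, 75.7%, stands in Gm3776, which is outside the symbol rule and was not in the sum. With Gsta1 and Gsta2 summed to 1 feature, the difference of HFD + Inhib from HFD was -0.20 (edgeR adjusted p = 0.78). Gsta2 had the higher mean level of the 2, and the part of the division of reads in the Gsta1 value was not tested.

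Among the other Gst genes, Gsto1 and Gstt2 changed most. Gsto1, an omega class enzyme with thioltransferase activity, was at 55.5, 51, 59.9 and 55.7 CPM in LFD and 34.7, 25.9, 36.8 and 36.4 in HFD, where it fell by 0.73 ± 0.12 (edgeR adjusted p = 7.6e-04). It was higher than in HFD with both treatments, at 54.7, 45.1, 50.9 and 49 CPM in HFD + siRNA (0.58 ± 0.11, edgeR adjusted p = 0.005) and at 61.1, 53.3, 44.7 and 50.1 in HFD + Inhib (0.65 ± 0.11, edgeR adjusted p = 9.4e-04), and no library of either overlapped with HFD. Between the treatments the difference was 0.07 ± 0.11 (edgeR adjusted p = 0.683).

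Gstt2, of the theta class, passed with the inhibitor and not on an HFD or with KD. Its level was 22.2, 34.7, 34.4 and 35.8 CPM in LFD, 25.5, 12.4, 19.2 and 32.1 in HFD, 35.4, 20.7, 41.8 and 29 in HFD + siRNA and 79.6, 76.4, 46.2 and 75.1 in HFD + Inhib. All HFD + Inhib libraries were above all others, by 1.64 ± 0.27 (edgeR adjusted p = 4.7e-04) against HFD and by 1.13 ± 0.27 (edgeR adjusted p = 0.0039) against HFD + siRNA. Gstt1, the most abundant theta gene, passed in none of the comparisons, with levels of 137 to 183 CPM in LFD and 169.6 to 216 in HFD + Inhib, and neither did Gstt3. Under the offset for GC content and length, Gstt1 was 0.32 ± 0.10 (edgeR adjusted p = 0.048) on an HFD and 0.42 ± 0.10 (edgeR adjusted p = 0.0069) between the treatments, against 0.13 and 0.21 without it. Gstz1, which also breaks down tyrosine as maleylacetoacetate isomerase, was higher on an HFD by 0.29 ± 0.08 (edgeR adjusted p = 0.025), a call lost when any of 5 of the 8 libraries was left out (adjusted p up to 0.081, without HFD replicate 4). Gstk1, the mitochondrial and peroxisomal kappa enzyme, was higher in HFD + Inhib than in HFD by 0.62 ± 0.15 (edgeR adjusted p = 0.0069), with HFD + Inhib replicate 3 within the HFD range.

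The Ugt1a genes are transcripts of 1 locus: each has a first exon and start site of its own, and all share the later exons. Of the 50-base words of a tested Ugt1a transcript, 52.1% to 79.8% stand in other genes. The end of the own exon (30 bases, lower case) and the start of the first shared exon (40 bases, capitals) show where counts become ambiguous (GENCODE M21):
Ugt1a1: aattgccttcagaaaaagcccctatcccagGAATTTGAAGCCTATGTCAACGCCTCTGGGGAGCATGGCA
Ugt1a6a: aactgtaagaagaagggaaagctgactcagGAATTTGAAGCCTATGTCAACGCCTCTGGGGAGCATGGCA
Ugt1a9: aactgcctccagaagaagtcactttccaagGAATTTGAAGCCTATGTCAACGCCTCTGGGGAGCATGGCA

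None of the 8 tested Ugt1a genes passed the threshold on an HFD, where 18.4% of all tested genes did. Ugt1a1, at -0.43 ± 0.16 (edgeR adjusted p = 0.068), passed there with the offset for GC content and length (-0.46 ± 0.15, edgeR adjusted p = 0.045), with DESeq2 (adjusted p = 0.041) and without LFD replicate 1 (edgeR adjusted p = 0.015). With KD, Ugt1a1 was higher and Ugt1a7c, Ugt1a8 and Ugt1a9 were lower than in HFD. With the inhibitor, Ugt1a1, Ugt1a5 and Ugt1a9 were higher and Ugt1a6a was lower. Between the treatments, Ugt1a5, Ugt1a7c, Ugt1a8 and Ugt1a9 were higher and Ugt1a6a and Ugt1a6b lower in HFD + Inhib than in HFD + siRNA. Of the 8 genes, 50% passed with KD, 50% with the inhibitor and 75% between the treatments, against 11.7%, 18.2% and 33.8% of all tested genes.

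Ugt1a9, which glucuronidates bulky phenols, was at 47.1, 96.1, 62.9 and 93.6 CPM in LFD, 40.6, 60.3, 29.9 and 46.4 in HFD, 34.4, 13.7, 20.5 and 15.1 in HFD + siRNA and 55.9, 124, 62.1 and 122 in HFD + Inhib. The HFD + siRNA and HFD + Inhib libraries did not overlap, and the log2 difference between them was 2.12 ± 0.34 (edgeR adjusted p = 2.3e-04), a fold of 4.35. Each treatment overlapped with HFD in part: the difference was -1.08 ± 0.34 (edgeR adjusted p = 0.046) with KD and 1.04 ± 0.33 (edgeR adjusted p = 0.038) with the inhibitor. With the offset for GC content and length these were -1.03 (edgeR adjusted p = 0.07) and 0.89 (edgeR adjusted p = 0.071), and several libraries, when left out, raised the adjusted p to as much as 0.12 with KD (without HFD replicate 2 or HFD + siRNA replicate 4) and 0.11 with the inhibitor (without HFD + Inhib replicate 2 or 4). Under the replicate block the Ugt1a9 difference with KD was -0.99 (edgeR adjusted p = 0.07).

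Ugt1a7c and Ugt1a8 followed at levels of a few CPM. Ugt1a7c was at 0.928, 2.18, 1.59 and 3.09 CPM in HFD, 0.569, 0.218, 0.837 and 0.674 in HFD + siRNA and 3.18, 3.73, 1.98 and 6.6 in HFD + Inhib, with a difference of 2.74 ± 0.43 (edgeR adjusted p = 1.9e-04) between the treatments. Its fall with KD, -1.74 ± 0.44 (edgeR adjusted p = 0.018), was lost without HFD replicate 4 (-1.46, edgeR adjusted p = 0.058). Ugt1a8 was at 1.39, 0.328, 1.29 and 0.527 CPM in HFD + siRNA and 4.59, 6.18, 1.98 and 7.26 in HFD + Inhib, a difference of 2.49 ± 0.53 (edgeR adjusted p = 0.002). Against HFD, Ugt1a8 differed by -1.79 ± 0.53 (edgeR adjusted p = 0.039) with KD, and leaving out 1 library ended that call in 6 of 8 cases (adjusted p up to 0.11, without HFD + siRNA replicate 4), as did the offset for GC content and length (-1.76 ± 0.54, edgeR adjusted p = 0.055). The replicate block ended it too (-1.66, edgeR adjusted p = 0.056). Ugt1a5 was at 28.5, 55.6, 39.6 and 43.2 CPM in HFD + siRNA and 69.9, 78.5, 147 and 114 in HFD + Inhib, a difference of 1.30 ± 0.23 (edgeR adjusted p = 4.5e-04). Its rise over HFD, 0.70 ± 0.22 (edgeR adjusted p = 0.039), was lost without HFD replicate 1, 2 or 4 or HFD + Inhib replicate 3 or 4 (adjusted p up to 0.15, without HFD + Inhib replicate 3), and with the offset it was 0.58 ± 0.21 (edgeR adjusted p = 0.063). For Ugt1a5, Ugt1a7c, Ugt1a8 and Ugt1a9 the groups with KD and with the inhibitor were apart in every library, and the calls were kept without any 1 library.

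Ugt1a1, the main enzyme of bilirubin glucuronidation, was at 299, 466, 503 and 469.5 CPM in LFD, 339, 258, 315 and 380.5 in HFD, 364, 497, 508.5 and 463 in HFD + siRNA and 542, 566, 474 and 569 in HFD + Inhib. Every HFD + Inhib library was above every HFD library, by 0.74 ± 0.16 (edgeR adjusted p = 0.0037). In HFD + siRNA the ranges overlapped, and the difference of 0.50 ± 0.16 (edgeR adjusted p = 0.047) was lost with RLE size factors (0.49, edgeR adjusted p = 0.051) and without any of 6 of the 8 libraries, with adjusted p up to 0.13 without HFD + siRNA replicate 3. The replicate block also ended that call (0.49, edgeR adjusted p = 0.051). Ugt1a6a and Ugt1a6b, which glucuronidate small phenols and are 98.4% identical in coding sequence, were both lower with the inhibitor than with KD, with log2 fold changes of -0.52 ± 0.09 (edgeR adjusted p = 3.3e-04) and -0.42 ± 0.10 (edgeR adjusted p = 0.0047). Ugt1a6a was at 79.9, 101, 83 and 93.2 CPM in HFD and 71.9, 69.8, 62.2 and 69.8 in HFD + Inhib, a difference of -0.38 ± 0.09 (edgeR adjusted p = 0.0061) with no overlap.

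**Figure D4:**
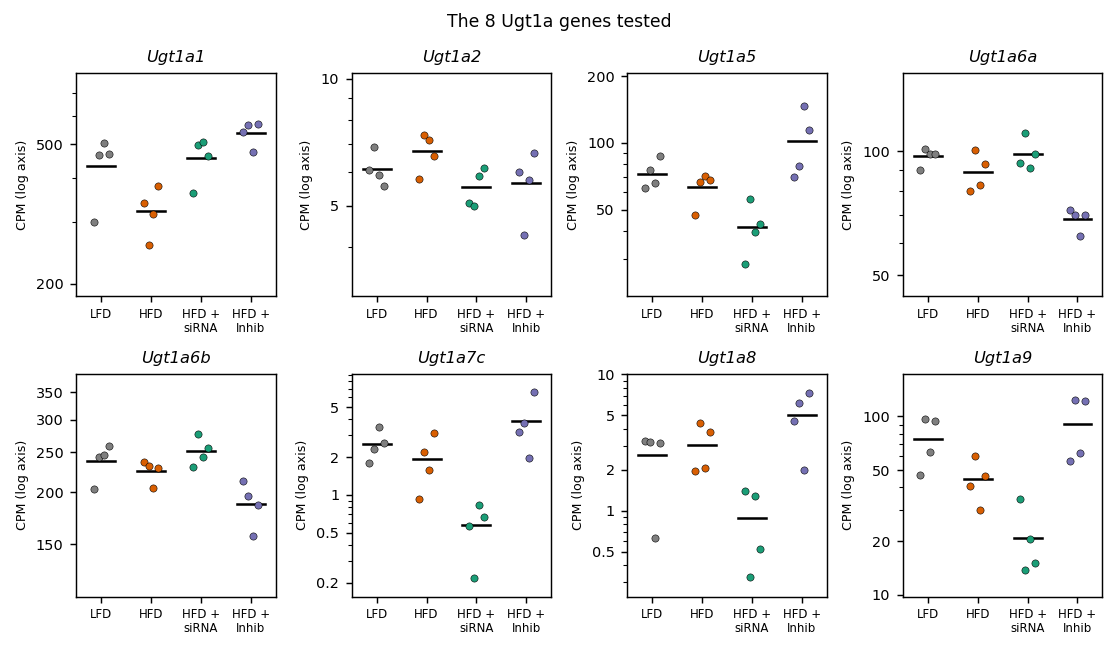
CPM on a log axis (vertical) of the 8 tested Ugt1a genes in the 4 groups (horizontal), with a point for each library and a line at each mean. Ugt1a5, Ugt1a7c, Ugt1a8 and Ugt1a9 are lowest in HFD + siRNA and highest in HFD + Inhib on average, while Ugt1a6a and Ugt1a6b are lowest in HFD + Inhib.

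Summed over the locus, the genes gave smaller differences. The Ugt1a sum was 753, 732, 715 and 831 CPM in HFD, 758, 959.6, 911 and 883 in HFD + siRNA and 967, 1049, 912 and 1082 in HFD + Inhib. With all Ugt1a genes as 1 feature the log2 fold change was 0.21 with KD (edgeR adjusted p = 0.26), 0.40 with the inhibitor (edgeR adjusted p = 0.023) and 0.19 between the treatments (edgeR adjusted p = 0.22). Ugt1a1 and Ugt1a6b held the larger part of the sum, and the part of the division of reads in the single genes' values was not tested.

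Of the 64 genes, 56 had a promoter in the RefSeq table (GRCm38.p6), and the 250 bases before each start were searched on both strands for 5 motifs. The HNF1 consensus site stood in 8 of the 56 (14.3%), against 0.44% of 27025 promoters. HNF1 factors are liver transcription factors that also act in kidney and gut. The 8 genes were Ugt1a1, Ugt1a9, Ugt1a10, Sult1d1, Sult2a3, Sult2a4, Sult2a5 and Sult2a6. They are not 8 independent finds, because the Sult2a genes are related copies and the Ugt1a genes belong to 1 locus. The bases that follow the motif are nearly the same in Ugt1a9 and Ugt1a10. The share of 14.3% thus counts related promoters more than once, and its excess was not tested. Only Ugt1a1, Ugt1a9 and Sult1d1 were tested for expression. Their matches are shown with the motif in capitals and 30 bases on either side:
Ugt1a1, chr1:88211884-88211953, plus strand: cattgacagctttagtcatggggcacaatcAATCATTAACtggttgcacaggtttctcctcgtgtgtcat
Ugt1a9, chr1:88070654-88070723, plus strand: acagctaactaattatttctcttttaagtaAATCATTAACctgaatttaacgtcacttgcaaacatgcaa
Sult1d1, chr5:87569046-87569115, minus strand: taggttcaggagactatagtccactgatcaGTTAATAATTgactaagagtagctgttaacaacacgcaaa
Of the other 4 motifs, the share in these promoters was above that in all promoters for the nuclear receptor half-site and below it for the rest. The core of the antioxidant response element, TGACNNNGC, stood in 3 of 56 (Gsta3, Gstm5 and Gstm7, 5.4%, against 11.5%), and the AhR core GCGTG in 10 (17.9%, against 30.9%). The nuclear receptor half-site AGGTCA stood in 11 (19.6%, against 15.8%) and the STAT5 site TTCNNNGAA in 4 (7.1%, against 8.13%).

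The Ugt2b genes, which glucuronidate steroids and bile acids, hold the most abundant Ugt transcript per kilobase, Ugt2b5. It was at 507, 727, 575.5 and 668 CPM in LFD, 471, 529, 474 and 471 in HFD, 422, 557, 349.9 and 456 in HFD + siRNA and 565, 641, 532 and 533 in HFD + Inhib, and passed in none of the comparisons, though with the offset for GC content and length it was -0.69 ± 0.11 (edgeR adjusted p = 0.00058) on an HFD. Between the treatments it was 0.35 ± 0.13 (edgeR adjusted p = 0.055), which passed with RLE size factors, with at least 10 counts in every library, with the replicate block, with DESeq2 (adjusted p = 0.035) and without HFD + siRNA replicate 2 (edgeR adjusted p = 0.0085), whereas with the offset it was -0.13 ± 0.11 (edgeR adjusted p = 0.37). Ugt2b34 was at 342, 311, 349 and 341 CPM in HFD and 405, 593, 468 and 482 in HFD + Inhib, with no overlap, a rise of 0.54 ± 0.16 (edgeR adjusted p = 0.03). Leaving out 1 library raised its adjusted p to between 0.05 and 0.11 in 6 of the 8 cases, the highest without HFD + Inhib replicate 2. Against HFD + siRNA the difference of 0.61 ± 0.16 (edgeR adjusted p = 0.0094) became 0.07 (edgeR adjusted p = 0.74) with the offset for GC content and length.

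Ugt2b37 and Ugt2b38 had few counts and large changes. Ugt2b38 had 296, 159, 117 and 121 counts in the LFD libraries, 23, 23, 3 and 6 in HFD, 43, 287, 19 and 81 in HFD + siRNA and 163, 45, 37 and 18 in HFD + Inhib. The HFD libraries were below all LFD libraries, with a log2 fold change of -3.83 ± 0.90 (edgeR adjusted p = 0.0086). With KD the difference was 3.05 ± 0.90 (edgeR adjusted p = 0.037), but the groups overlapped, and without HFD + siRNA replicate 2 it was 1.72 (edgeR adjusted p = 0.18). The call was also lost without any 1 of the HFD libraries or HFD + siRNA replicate 4 (adjusted p from 0.056 to 0.11). Ugt2b37 was at 0.88, 1.76, 0.866 and 0.626 CPM in LFD, 0.497, 0.36, 0.114 and 0.391 in HFD and 0.854, 4.04, 1.08 and 1.41 in HFD + siRNA, a change of -1.57 ± 0.53 (edgeR adjusted p = 0.048) on an HFD and of 2.40 ± 0.51 (edgeR adjusted p = 0.0075) with KD. The first of these was lost without any of 7 of the 8 libraries (adjusted p up to 0.13, without LFD replicate 2 or HFD replicate 3). Ugt2b38 and Ugt2b5 have coding sequences that are 97.0% identical, so the division of reads between the rare Ugt2b38 and the abundant Ugt2b5 is uncertain.

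Ugt2b35 was lower on an HFD, with a log2 fold change of -0.49 ± 0.14 (edgeR adjusted p = 0.026), a call lost without any of 5 of the 8 libraries (adjusted p up to 0.084, without HFD replicate 3). With the offset for GC content and length it was -0.88 ± 0.13 (edgeR adjusted p = 0.00036). Ugt2b1 was lower in HFD + Inhib than in HFD + siRNA, with -0.73 ± 0.27 (edgeR adjusted p = 0.049), where HFD + Inhib replicate 1 was at 226 CPM and the other 3 libraries between 81.1 and 102. Leaving out 1 library ended the Ugt2b1 call in 6 of 8 cases (adjusted p up to 0.16, without HFD + siRNA replicate 2), and with the offset it was -1.16 ± 0.25 (edgeR adjusted p = 0.0028). Against HFD, Ugt2b1 differed by -0.80 ± 0.27 (edgeR adjusted p = 0.053) in HFD + Inhib. This passed in 7 alternatives, among them the offset, with -0.97 ± 0.25 (edgeR adjusted p = 0.012), DESeq2 (adjusted p = 0.021) and the fit without HFD + Inhib replicate 1, with -1.23 (edgeR adjusted p = 0.001). Ugt2a3 was at 174, 156, 158 and 186 CPM in HFD and 137, 135, 110.0 and 129.8 in HFD + Inhib, a change of -0.40 ± 0.12 (edgeR adjusted p = 0.024) that was lost without HFD replicate 1 or 4 or HFD + Inhib replicate 3 or 4 (adjusted p up to 0.076, without HFD + Inhib replicate 3). Ugt1a2, Ugt2b36, Ugt3a1 and Ugt3a2 passed in none of the comparisons. With the offset, however, Ugt2b36 passed in all 4: its log2 fold change was -0.45 ± 0.09 (edgeR adjusted p = 0.0028) on an HFD, 0.38 ± 0.09 (edgeR adjusted p = 0.012) with KD, -0.34 ± 0.09 (edgeR adjusted p = 0.011) with the inhibitor and -0.72 ± 0.09 (edgeR adjusted p = 1.5e-05) between the treatments. With the offset for GC content and length, 6 of the 7 Ugt2b genes were lower on an HFD, against 3 without it, with a median of -0.72 against -0.42; of all genes in the fit with the offset, 7.02% were lower. A technical trend and a response of genes of low GC content cannot be told apart here, because the trend and the groups run together.

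**Figure D5:**
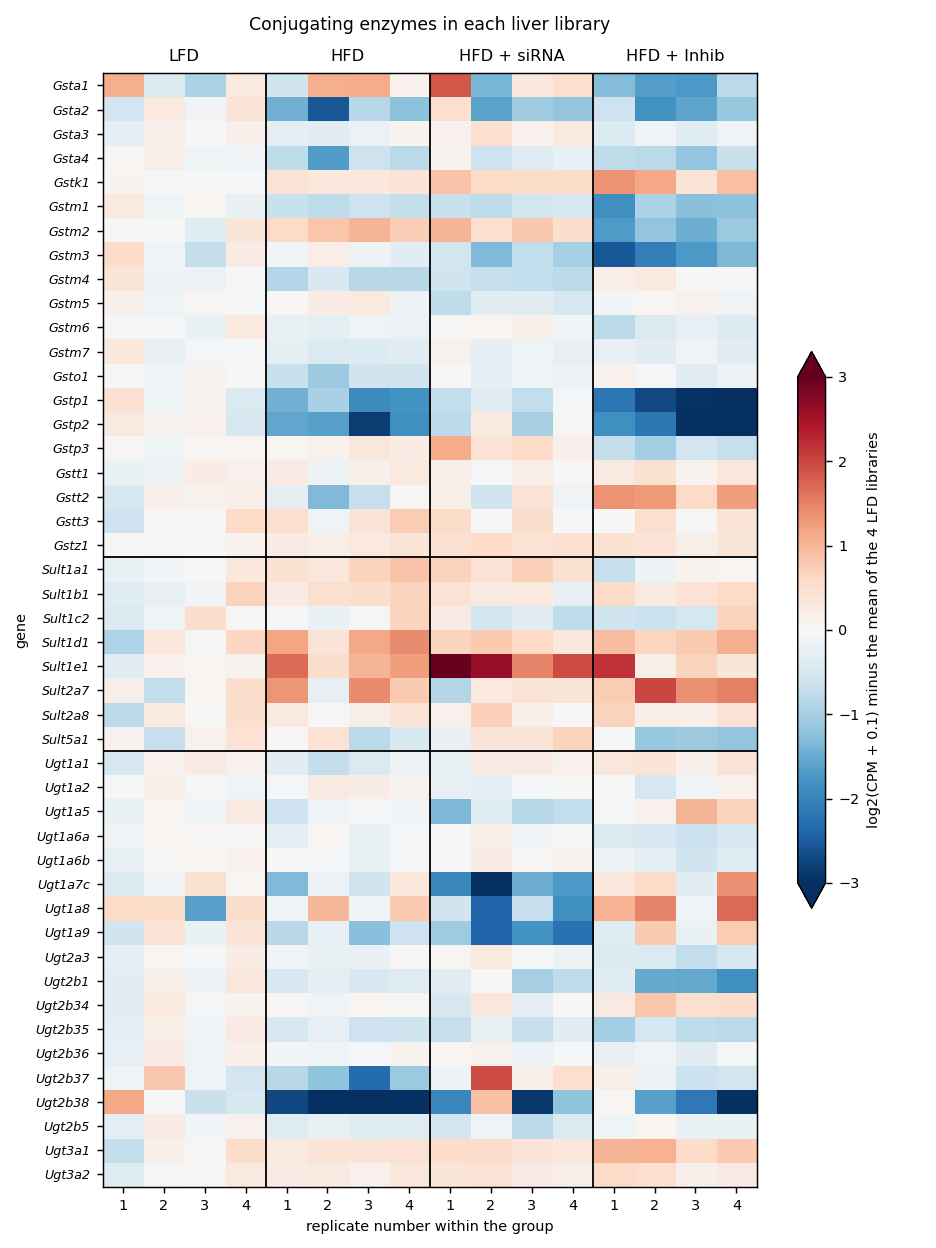
Heat map of the 46 tested genes (vertical) in the 16 libraries (horizontal, by group and replicate number); colour is log2(CPM + 0.1) minus the mean of the 4 LFD libraries, limited to 3 in either direction. Gstp1 and Gstp2 are blue in HFD and HFD + Inhib, Ugt2b38 is blue in HFD, and Ugt1a7c, Ugt1a8 and Ugt1a9 are blue in HFD + siRNA.

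Few sulfotransferases were expressed. Of 21 genes, 8 were tested, and per kilobase Sult2a8, which sulfates bile acids in male mouse liver, made up 58.2% of the class in LFD and 62.3% in HFD + Inhib, followed by Sult1a1 with 33.2% and 25.8%. Sult2a8, Sult1b1 and Sult1c2 passed in none of the comparisons. Under the offset for GC content and length, Sult2a8 passed with KD (0.56 ± 0.15, edgeR adjusted p = 0.032) and between the treatments (-0.58 ± 0.15, edgeR adjusted p = 0.0092). Sult1a1, the main phenol sulfotransferase, was at 134, 148, 156 and 197 CPM in LFD, 217, 199.7, 249 and 283 in HFD, 254, 213, 256 and 217 in HFD + siRNA and 97.3, 141, 168 and 164 in HFD + Inhib. Every HFD library was above every LFD library, by 0.58 ± 0.16 (edgeR adjusted p = 0.021), and every HFD + Inhib library was below every HFD library, with a log2 fold change of -0.73 ± 0.16 (edgeR adjusted p = 0.0046). The rise on an HFD lost its call, with adjusted p from 0.053 to 0.07, without LFD replicate 1 or 3 or HFD replicate 3 or 4, whereas the fall with the inhibitor was kept throughout. KD gave a difference of -0.01 ± 0.16 (edgeR adjusted p = 0.975) from HFD.

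Sult1d1, which sulfates catecholamines and eicosanoids, was higher on an HFD by 0.98 ± 0.25 (edgeR adjusted p = 0.015), with 26, 62.5, 47.7 and 75.6 CPM in LFD and 112.5, 63.9, 110.1 and 132 in HFD, and HFD replicate 2 within the LFD range. Its transcript has a GC content of 32.9%, and with the GC and length offset this became 0.12 (edgeR adjusted p = 0.66). The offset also turned the sign of the Sult1d1 difference with KD, from -0.49 to 0.32 ± 0.16 (edgeR adjusted p = 0.25), and between the treatments, from 0.27 to -0.71 ± 0.16 (edgeR adjusted p = 0.0043), where it then passed. Sult5a1 differed between HFD + Inhib and HFD + siRNA by -1.14 ± 0.32 (edgeR adjusted p = 0.013), with HFD + Inhib replicate 1 at 3.43 CPM and the others between 1.5 and 1.59. At levels as low as this, Sult2a7 (1.46 ± 0.41, edgeR adjusted p = 0.012) and the oestrogen sulfotransferase Sult1e1 (-2.20 ± 0.68, edgeR adjusted p = 0.02) also passed between the treatments. With the offset for GC content and length the Sult2a7 difference was 1.06 ± 0.40 (edgeR adjusted p = 0.057). The Sult1e1 call was lost without HFD + siRNA replicate 1 or HFD + Inhib replicate 2, 3 or 4 (adjusted p up to 0.12, without HFD + siRNA replicate 1). Leaving out HFD + siRNA replicate 1 moved the difference to -1.36. Sult1e1 had 0, 1, 1 and 1 counts in the LFD libraries, 9, 3, 4 and 5 in HFD, 55, 18, 7 and 13 in HFD + siRNA and 13, 1, 3 and 2 in HFD + Inhib.

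The genes that supply these enzymes or act beside them were taken from lists of the same pathways, whose shares of called genes are read against the 18.4% of all tested genes on an HFD, 11.7% with KD and 18.2% with the inhibitor. For the microsomal and other transferases outside the symbol rule, 1 of 7 tested genes rose on an HFD, none passed with KD, and 2 rose and 3 fell with the inhibitor (14.3%, 0.0% and 71.4% called in the 3 comparisons). Mgst1, the abundant microsomal transferase, was at 1349, 1561, 1424 and 1446 CPM in HFD and 2424.5, 2581, 1886 and 2078 in HFD + Inhib, a rise of 0.63 ± 0.14 (edgeR adjusted p = 0.0036) beside the falls of the cytosolic Gstp1, Gstm1, Gstm2 and Gstm3. Mgst3 rose by 0.79 ± 0.19 (edgeR adjusted p = 0.0084), and prostaglandin E synthase (Ptges) fell by 2.57 ± 0.82 (edgeR adjusted p = 0.038).

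In glutathione synthesis, recycling and breakdown, 2 of 13 tested genes rose and 4 fell on an HFD, 3 rose and 1 fell with KD, and 4 rose and 2 fell with the inhibitor (46.2%, 30.8% and 46.2%). Glutathione reductase (Gsr) was at 79.5, 71.9, 66.1 and 67.7 CPM in LFD, 46.2, 50.7, 50.1 and 44.2 in HFD, 63, 66.8, 54.8 and 62.1 in HFD + siRNA and 77.3, 80.7, 83.8 and 72.8 in HFD + Inhib. HFD lay below all other groups without overlap, and the rise with the inhibitor was 0.72 ± 0.08 (edgeR adjusted p = 2.1e-05). Oplah, which returns 5-oxoproline to glutamate, rose by 1.02 ± 0.16 (edgeR adjusted p = 4.2e-04), while the glutathione synthetase Gss fell by 0.51 ± 0.14 (edgeR adjusted p = 0.02) and the glutathione-degrading Chac1 fell by 1.75 ± 0.48 (edgeR adjusted p = 0.017). With KD, the transsulfuration genes Cth and Cbs, which make cysteine, rose by 0.91 ± 0.20 (edgeR adjusted p = 0.0085) and 0.79 ± 0.16 (edgeR adjusted p = 0.0065).

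For UDP-glucuronic acid, 4 of 9 tested genes rose on an HFD, 1 rose and 3 fell with KD, and 1 rose and 3 fell with the inhibitor, 44.4% in each. Ugdh, which makes UDP-glucuronic acid, was at 94.5, 133.5, 129 and 110.2 CPM in HFD and 166, 183, 180.1 and 177 in HFD + Inhib, a rise of 0.60 ± 0.13 (edgeR adjusted p = 0.0041). Ugp2, which makes its precursor UDP-glucose, fell with both treatments, with log2 fold changes of -0.72 ± 0.20 (edgeR adjusted p = 0.027) with KD and -0.94 ± 0.20 (edgeR adjusted p = 0.0034) with the inhibitor. Gulo, the last enzyme of vitamin C synthesis from glucuronate, was at 456, 461, 339 and 439 CPM in HFD and 103, 176, 93.6 and 119 in HFD + Inhib, where it fell by 1.79 ± 0.17 (edgeR adjusted p = 3.1e-06). For PAPS and sulfate, 3 of 11 tested genes rose on an HFD (27.3%), 1 fell with KD (9.1%), and 3 rose and 2 fell with the inhibitor (45.5%), among them the PAPS synthase Papss2 (0.44 ± 0.14, edgeR adjusted p = 0.045) and the sulfate transporters Slc26a1 (-0.65 ± 0.11, edgeR adjusted p = 8.1e-04) and Slc13a4 (-0.98 ± 0.24, edgeR adjusted p = 0.0089).

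Of 13 transporters of conjugates, 2 fell on an HFD (15.4%), 1 rose and 1 fell with KD (15.4%), and 3 rose and 3 fell with the inhibitor (46.2%). The shares on an HFD and with KD were near those of all genes. The basolateral exporter Abcc3, which moves glucuronides into blood, was at 234, 306, 350.5 and 327 CPM in LFD, 212, 214, 211 and 206 in HFD, 297, 295, 338 and 299 in HFD + siRNA and 418, 460.5, 389.7 and 421 in HFD + Inhib. It was above HFD in every library of both treated groups, by 0.54 ± 0.11 (edgeR adjusted p = 0.0043) with KD and 1.0 ± 0.11 (edgeR adjusted p = 6.9e-06) with the inhibitor. Abcc4, another basolateral exporter, rose with the inhibitor by 1.09 ± 0.18 (edgeR adjusted p = 6.2e-04), while the uptake carriers Slco1a1 and Slco1a4 fell, with log2 fold changes of -1.85 ± 0.31 (edgeR adjusted p = 4.9e-04) and -2.59 ± 0.39 (edgeR adjusted p = 2.4e-04).

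Of 19 regulators of these genes, 3 rose and 1 fell on an HFD (21.1%), 1 fell with KD (5.3%), and 1 rose and 3 fell with the inhibitor (21.1%), shares near or below those of all genes. PXR (Nr1i2) rose with the inhibitor by 0.65 ± 0.09 (edgeR adjusted p = 8.4e-05), and Ahr and the oestrogen receptor Esr1 fell, with -1.11 ± 0.14 (edgeR adjusted p = 4.5e-05) and -1.20 ± 0.29 (edgeR adjusted p = 0.008). Of 18 tested NRF2 targets outside the 3 classes, 1 rose and 4 fell on an HFD (27.8%), 1 rose and 1 fell with KD (11.1%, near all genes), and 4 rose and 1 fell with the inhibitor (27.8%). Of 19 CAR and PXR targets, 2 rose and 5 fell on an HFD (36.8%), 1 rose and 1 fell with KD (10.5%, near all genes), and 5 rose and 3 fell with the inhibitor (42.1%). Among the latter, the cytochrome P450 reductase Por rose by 1.30 ± 0.22 (edgeR adjusted p = 5.4e-04), while Cyp2c37 fell by 1.54 ± 0.45 (edgeR adjusted p = 0.023). Of 5 AhR targets, 1 passed in each of these comparisons (20%, near all genes on an HFD and with the inhibitor). One of them, Cyp1a2, rose with KD by 0.82 ± 0.18 (edgeR adjusted p = 0.01) and with the inhibitor fell by 1.06 ± 0.19 (edgeR adjusted p = 7.8e-04). Of 22 PPAR alpha targets, 21 rose with the inhibitor (95.5%), with a median log2 fold change of 3.13, while the 46 conjugating genes had a median of -0.05; 9 of the 22 rose on an HFD (40.9%), and 3 fell with KD (13.6%, near all genes). On an HFD, 11 of 16 male-biased liver genes fell and none rose (68.8%, median -1.09), and 8 of 13 female-biased genes rose and none fell (61.5%, median 1.56), beside the falls of Gstp1 and Gstp2. Sult2a8, named above for its role in male mouse liver, did not pass there (0.14, edgeR adjusted p = 0.69). The part of this shift in the values of the conjugating genes was not tested. With KD, 1 of the 16 male-biased genes (Elovl3, 1.97 ± 0.47, edgeR adjusted p = 0.014) rose and none fell (6.2%, median 0.61), and with the inhibitor 3 rose and 3 fell (37.5%, median -0.06). Between the treatments, 2 of the male-biased genes were higher and 7 lower in HFD + Inhib (56.2%, median -0.81), against 33.8% of all tested genes called. Of the 13 female-biased genes, 3 fell with KD (23.1%, median -0.27) and 1 rose with the inhibitor (7.7%, median -0.41). Between the treatments 2 of them were higher and 1 lower in HFD + Inhib (23.1%).

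Markers of cell types were read in the same libraries, since in whole liver fewer cells of a type and less RNA per cell cannot be told apart. Called shares of these lists are read against the same 18.4%, 11.7% and 18.2% of all tested genes, and 33.8% between the treatments. Of 9 hepatocyte markers, 2 fell on an HFD (22.2%) and 1 rose with KD (11.1%), shares near those of all genes, and 1 rose and 3 fell with the inhibitor (44.4%), among the latter Alb and Ttr, the carriers albumin and transthyretin. Alb, the most abundant marker, was at 54080.2, 42757, 52893 and 54189.8 CPM in HFD and at 29784, 27701.5, 30234 and 31981 in HFD + Inhib, where it fell by 0.77 ± 0.13 (edgeR adjusted p = 7.6e-04). The sum of the hepatocyte markers was 78514 to 97808 CPM in LFD and 62189 to 78423 in HFD, without overlap by a small margin, beside the falls of Gstp1 and Gstm1. It was 72198 to 84410 in HFD + siRNA, which overlapped with HFD, and 47533.5 to 49707 in HFD + Inhib, below all other libraries, beside the falls of Gstp1, Gstm1, Gstm2 and Gstm3. Between the treatments, 1 hepatocyte marker was higher and 5 were lower in HFD + Inhib (66.7%), beside the 17 conjugating genes that were lower there. The parts of these shifts in those falls were not tested.

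With the inhibitor, 3 markers fell in each of the lists for macrophages (25.0%), stellate cells (30%) and lymphocytes (33.3%), against 18.2% of all tested genes called, whereas the endothelial (10%) and cholangiocyte (0.0%) shares were below that. Of 12 macrophage markers, 1 rose on an HFD, none passed with KD and 7 were lower in HFD + Inhib than in HFD + siRNA (58.3%). Their sum was 251 to 317 CPM in HFD, 293 to 384 in HFD + siRNA and 161.7 to 251 in HFD + Inhib, with Clec4f the most abundant. Of 10 stellate cell markers, 2 rose on an HFD (20%) and none passed with KD. Between the treatments 3 were lower in HFD + Inhib (30%, below the 33.8% of all tested genes). Their sum was 363 to 433 CPM in LFD, 443 to 538 in HFD, 476 to 549 in HFD + siRNA and 346 to 381 in HFD + Inhib, so that HFD lay above LFD and HFD + Inhib without overlap, with Reln the most abundant. Of 9 lymphocyte markers, led by Ptprc, 1 rose on an HFD and 1 with KD (11.1% each), and 3 were lower in HFD + Inhib than in HFD + siRNA (33.3%, near all genes). Their sums were 17.5 to 26 CPM in HFD and 11.5 to 17.6 in HFD + Inhib. Of 10 endothelial markers, led by Stab2, 1 rose with the inhibitor, none passed on an HFD or with KD, and 1 was higher and 2 lower between the treatments (30%, below all genes). Their sums were 351 to 413 CPM in HFD and 353 to 378 in HFD + Inhib. Of 8 tested cholangiocyte and gallbladder markers, led by Spp1, 1 rose on an HFD (12.5%), none passed with either treatment, and 1 was higher in HFD + Inhib than in HFD + siRNA (12.5%, below all genes). Their sums were 26.9 to 47.2 CPM in HFD and 28.4 to 56.2 in HFD + Inhib.

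Of 8 adipocyte markers, 4 were tested (Cidec, Fabp4, Cfd and Pck1), while Adipoq, Lep, Plin1 and Retn did not pass the filter on low counts. Of the 4 tested, 2 rose on an HFD (50%), 1 fell with KD (25.0%) and 3 rose with the inhibitor (75.0%), against 18.4%, 11.7% and 18.2% of all tested genes. Fabp4 rose there by 3.30 ± 0.24 (edgeR adjusted p = 2.3e-07), and Pck1, which hepatocytes also express, was the most abundant, at 1162.8 to 1763 CPM in HFD and 874.7 to 1549 in HFD + Inhib. Of the pancreas markers, Cela1 was the single one tested, at 8.34 to 11.5 CPM in LFD, 12.8 to 19.1 in HFD, 17 to 28 in HFD + siRNA and 4.51 to 6.96 in HFD + Inhib; it rose on an HFD and with KD and fell with the inhibitor, and the defining Prss1 and Try4 were at 0 in every library. Of the intestine and stomach markers, Fabp2 and Lgals4 were tested, and both rose with the inhibitor, by 0.46 ± 0.13 (edgeR adjusted p = 0.018) and 1.62 ± 0.28 (edgeR adjusted p = 7.3e-04). Fabp2 also rose on an HFD, where it was at 70.8 to 88.9 CPM, against 25.4 to 34.2 in LFD. The single kidney marker tested, Lrp2, was at 0.828 to 3.06 CPM in HFD and passed in no comparison. The parts of these cell types in the results for the conjugating genes were not tested.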

How the data were processed

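The deposited table held RSEM expected counts per gene symbol for 16 liver libraries, which the authors made with STAR and RSEM on mouse genome build mm39, per the submitters' processing notes. Versions of STAR and RSEM are not given in the sources used here. The methods of the study name a targeted panel assay, so how the libraries were made is uncertain. Of the values of the 64 genes, 45.0% were not whole, because RSEM divides reads among similar transcripts, and expected counts were rounded to whole numbers before the tests.

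Genes were filtered with filterByExpr (minimum count 10, minimum total 15), scaled by TMM (factors 0.929 to 1.09) and tested with edgeR 4.0.16 in R 4.3.3 by quasi-likelihood F-tests in 1 fit of all 16 libraries with a term per group. The common dispersion was 0.038. The Benjamini-Hochberg adjustment covered 18335 genes. CPM values were computed from the TMM-scaled counts, and levels between genes were compared per kilobase. GC content, length and shared 50-base words came from GENCODE M21 transcripts, and promoters from RefSeq (GRCm38.p6). Since this is another build than that of the counts, genes are given by symbol without coordinates, and promoter windows carry their own. An expected count is an estimate that can be no more precise than its reads, so genes with few counts have wide errors.

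Genes named in the text are the most abundant of each family and, per comparison, the 5 largest increases and 5 largest decreases past an adjusted p of 0.05, among genes whose log2 CPM averaged 1 or more and whose groups did not overlap. Others (Gstk1, Gstm6, Gstm7, Gstt3, Sult1d1, Sult1e1, Sult2a7, Ugt1a6a, Ugt1a6b, Ugt2b1, Ugt2b35, Ugt2b37 and the uncalled genes) were named after their values were seen, to complete the family counts. From each other list, at most the 2 largest increases and 2 largest decreases with each treatment were named. Of these, Abcc3, Abcc4, Slco1a1 and Slco1a4 stand in more than 1 list. Some genes not named do so too, so the counts of the lists are not independent. Cyp2b9 and Cyp2b13 count among both the CAR and PXR targets and the female-biased genes, and Acot3 among both the PPAR alpha targets and the female-biased genes. The genes and lists were chosen with earlier results of these data known. The tests were checked on simulated data, of which no values are given here.

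Alternatives were RLE size factors, other filters on low counts, DESeq2 1.42.0, the 2 compared groups alone, each library left out, a replicate block, an offset for GC content and length (for 16109 genes, 87.9% of those tested), genes that share sequence summed, and other thresholds. The labels give each library as a separate sample of its group and do not say whether each is 1 mouse, so the p-values measure the spread between these samples. No pair of libraries of the same group differed by less than the sampling noise.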

Additional observations from a re-analysis of the deposited data

Results flagged for a closer look

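In 8 of 120 groups of 4 libraries examined, 1 library stood apart from the other 3 by a gap above Dixon's 95% critical value, and about 1 group in 20 does so by chance. In HFD + siRNA, Gsta2 was at 48.1 CPM in replicate 1 and at 11.3 to 16.5 in the others, and Sult2a8 was at 676.9 CPM in replicate 2 and at 419 to 456 in the others. In HFD, replicate 2 was highest for Gstm4, at 32.9 CPM against 24.8 to 25.6, and for Ugt2b5, at 529.1 CPM against 470.6 to 474. In HFD + Inhib, Gstt2 was at 46.2 CPM in replicate 3 and at 75.1 to 79.6 in the others, and Sult5a1 was at 3.43 CPM in replicate 1 and at 1.5 to 1.59 in the others. In LFD, Gstt2 was at 22.2 CPM in replicate 1 against 34.4 to 35.8, and Ugt1a8 was at 0.627 CPM in replicate 3 against 3.13 to 3.27.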

How the results depend on the processing

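Over 120 pairs of a gene and a comparison, 2268 values were set against the main ones: 2008 kept their direction and side of the threshold, 139 lost the call, 45 gained one and 76 changed sign, and the causes were not tested. For the other thresholds the main values were read again without a new fit, so some of the 139 lost calls only missed a stricter threshold. Gstp2 with KD and Gstm1 with the inhibitor lost their call in that way alone. Sult1e1, Ugt2b37 and Ugt2b38 rest on low counts, and Ugt1a, Gsta1 and Gstp2 share reads with other genes. Other named genes share sequence too. The share of 50-base words that stand in other genes was 49.8% for Gsta2, 41.7% for Ugt2b5, 37.4% for Ugt2b38 and 33.7% for Gstp1. It was 28.8% for Gstm3 and 18.9% for Gstm1, which were not summed with other genes.

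Leaving out each library gave 9 to 15 called genes on an HFD (2 to 6 higher, 7 to 10 lower), 5 to 10 with KD (3 to 6 higher, 1 to 4 lower), 13 to 19 with the inhibitor (5 to 9 higher, 7 to 11 lower) and 23 to 27 between the treatments (9 to 10 higher, 14 to 18 lower). At an adjusted p under 0.01, 8 genes were called on an HFD (1 higher, 7 lower), 3 with KD (2 higher, 1 lower) and 11 with the inhibitor (5 higher). With the genes that share sequence summed, 7 features were called with KD (1 lower) and 16 between the treatments (4 higher). With the GC and length offset, calls were 5 higher and 16 lower on an HFD, 11 and 3 with KD, 6 and 13 with the inhibitor, and 9 and 22 between the treatments, and with the replicate block added 14 genes were lower with the inhibitor.

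Samples with the same replicate number correlated at -0.132 to 0.336 in their deviations, so they share only a number; with that number as a replicate block, 17, 11, 19 and 29 genes were called in the 4 comparisons. DESeq2 called 16, 13, 20 and 28. For the alternatives other than the offset alone, no shares of all tested genes are given here, so these counts are not read against them. Apart from the offset and the summing of genes that share sequence, at least 1 alternative gave a call that the main values lack for Gstk1, Sult1b1, Sult1e1, Sult2a7, Ugt1a1, Ugt2b5 and Ugt3a1 on an HFD, Gstm3, Sult1e1 and Ugt1a5 with KD, Sult5a1, Ugt1a6b, Ugt1a7c, Ugt2b1, Ugt2b38 and Ugt3a1 with the inhibitor, and Gstk1, Ugt2b35, Ugt2b37, Ugt2b5 and Ugt3a1 between the treatments. As part of a summed feature, Gstp3 with KD and Gstp2, Ugt1a7c and Ugt1a8 with the inhibitor also gained a call.

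On an HFD, the sign changed for Khk with at least 10 counts in every library (0.01), the replicate block (0.00), the GC and length offset (0.20) and both (0.21). It also changed for Gstm3 with the offset and block (0.01), and for Sult2a8 with the offset (-0.40) and with the block too (-0.40). For Ugt2b34 it changed with at least 10 counts (0.00) and the block (0.02). In summed features it changed for Gsta1 (-1.10), Gstp3 (-1.51) and Ugt1a8 (-0.29), each value being that of the whole feature. With KD, it changed for Gsta1 with the block (-0.21) and with the offset and block (-0.36), for Sult1a1 with the block (0.01), for Ugt1a5, Ugt1a7c, Ugt1a8 and Ugt1a9 when summed (0.21), and with the offset, without and with the block, for Gstm1 (-0.11 and -0.11), Gstm4 (-0.11 and -0.11), Ugt2b34 (0.35 and 0.33) and Ugt2b5 (0.16 and 0.16). With the inhibitor, the offset, without and with the block, turned Gsta2 (-0.02 and -0.05), Gsta4 (-0.08 and -0.06), Gstz1 (-0.03 and -0.03), Sult2a8 (-0.03 and -0.03) and Ugt3a2 (-0.05 and -0.05), and summing turned Gsta2 (-0.20). Between the treatments, the offset, without and with the block, turned Sult2a8 (-0.58 and -0.58), Ugt2b5 (-0.13 and -0.14) and Ugt3a2 (-0.27 and -0.27). Among the tested genes outside these 120 pairs, the offset turned Sult1b1 (-0.08) and Sult1c2 (-0.07) on an HFD, Sult1b1 (0.20), Sult1d1 (0.32) and Ugt2b1 (0.19) with KD, and Gstt3 (0.05), Sult1b1 (-0.40), Sult1c2 (-0.15), Sult1d1 (-0.71) and Ugt1a2 (-0.09) between the treatments.

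With single libraries left out, values crossed 0 on an HFD for Khk (-0.12 to 0.15), Gstm3 (-0.33 to 0.06), Sult2a8 (-0.05 to 0.34), Ugt1a8 (-0.05 to 0.44) and Ugt2b34 (-0.10 to 0.09). With KD they did so for Gsta1 (-0.59 to 0.45), Gstm2 (-0.21 to 0.00), Gstm4 (-0.02 to 0.14), Sult1a1 (-0.09 to 0.07), Sult2a8 (-0.14 to 0.12), Ugt2b34 (-0.25 to 0.03) and Ugt3a2 (-0.01 to 0.08). With the inhibitor they did so for Gsta2 (-0.08 to 0.43), Gsta3 (-0.13 to 0.01) and Gsta4 (-0.10 to 0.20), and between the treatments for Gsta2 (-0.87 to 0.07), Gsto1 (-0.00 to 0.14) and Ugt2b38 (-1.67 to 0.65). None of these had passed the threshold.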
